A study of Mus musculus with 15 samples.

Results

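Cyp2d9, Cyp2d10, Cyp2d22 and Cyp2d26 are members of the Cyp2d family of cytochrome P450 enzymes, and their messenger RNA was followed here in mouse hepatocytes in culture. The members were chosen by gene name: every array probe named for one of these 4 genes was used, which gave 8 of 41174 probes and 4 of 27376 gene names. The arrays were Agilent 1-colour mouse arrays, of which 7 measured eHep, expandable hepatocytes kept in expansion medium, 7 measured mHep, the cells named as grown in differentiation medium, and 1 measured primary hepatocytes. Both cultures ran for 21 days and came from the livers of the same 3 mice: 129S1-No1 with 3 eHep and 3 mHep arrays, C57B6-No1 with 3 and 3, and 129S1-No2 with 1 and 1. The primary hepatocytes were isolated from C57B6 mice by collagenase perfusion, and only 1 array of them was measured. The labels do not spell out the name mHep, do not give the age or sex of the mice, and do not say whether the 3 arrays of a mouse and medium were separate cultures. The p-values over single arrays may therefore measure technical spread alone. The mHep array of 129S1-No2 has the title of an mHep sample and a source name that calls it eHep. It was placed by its title, and leaving this mouse out is reported beside the result.

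Cytochrome P450 enzymes of the second family are haem proteins of the endoplasmic reticulum that oxidise drugs, steroids and other small molecules with electrons passed on by P450 oxidoreductase. Humans have 1 active gene of the subfamily, CYP2D6, which metabolises many common drugs, and the mouse has a cluster of related genes on chromosome 15 that are expressed mainly in the liver. Cyp2d9 is known as a testosterone hydroxylase that is more abundant in the liver of male mice and depends on the male pattern of growth hormone release, and Cyp2d22 has been described as a mouse counterpart of CYP2D6. Because the genes are close copies of each other, a short probe may bind the messenger of more than 1 of them.

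The Cyp2d9 probes are shown because they overlap and because they match relatives. Both lie on chromosome 15 of the mm9 build, on the plus strand, at chr15:82286832-82286891 and chr15:82286799-82286858. They share a run of 27 bases, given in capitals, and so are not independent readings of the gene.
Cyp2d9 A_51_P124133: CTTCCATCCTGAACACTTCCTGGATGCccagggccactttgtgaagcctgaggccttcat
Cyp2d9 A_51_P478303: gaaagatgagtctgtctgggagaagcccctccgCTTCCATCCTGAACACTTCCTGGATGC
By the accessions listed in the array files, A_51_P124133 also matches Cyp2d11, Cyp2d34 and Cyp2d40, and A_51_P478303 also matches Cyp2d11. Readings of these 2 probes may therefore be sums over several Cyp2d genes. The Cyp2d10 probe A_51_P111192 (NM_010005) lies at chr15:82233388-82233447 on the minus strand, and A_52_P527775 covers 60 bases spread over 690 at chr15:82234977-82235666 on the same strand, as a probe across exon boundaries does. Of the Cyp2d22 probes, A_51_P124126 (NM_019823) lies at chr15:82204377-82204436 and A_52_P49391 (NM_001163472) at chr15:82201687-82201746, both on the minus strand. The third, A_52_P478420 at chr15:82205919-82205978, is listed for a cDNA clone, AK086555, and matched no RefSeq gene. The Cyp2d26 probe A_51_P120295 (NM_029562) lies at chr15:82620575-82620634 on the minus strand. Coordinates of exons in mm9 were not used here, so positions within the genes are not given.

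Signals are given first as the processed signal of the scanner, in arbitrary units and not scaled between arrays. Levels, called scaled below, are log2 signals from which the 75th percentile of their array was subtracted. A level is a mean ± SD of the 3 mouse means, and a difference is log2 ± SE of the fit. A reading is called above background where the scanner marked it as well above background. A probe was called where its adjusted p was under 0.05, and against the primary array also where the difference was at least 1 on the log2 scale.

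Cyp2d9 rose in mHep in all 3 mice. With probe A_51_P124133, the 7 eHep signals ran from 17.2 over a median of 87.2 to 141.5, and the 7 mHep signals ran from 2192 over a median of 3150 to 44370.5, against 82082.5 on the primary array. The lowest mHep array lay above the highest eHep array, and the 3 mHep arrays of 129S1-No1 (27978 to 44370.5) lay above the other mHep arrays (2192 to 3150). The level went from -3.31 ± 1.97 to 3.41 ± 1.95, a log2 difference of 6.72 ± 0.68 or 106-fold (limma adjusted p = 0.0159, higher in 3 of 3 mice). Only the eHep array of 129S1-No2 was not above background. Probe A_51_P478303 was above background on all 15 arrays, with eHep signals from 76.8 over 171.5 to 251.8, mHep signals from 1860 over 2752 to 37568 and 77743 in primary hepatocytes. Its difference was 5.16 ± 0.60 or 35.7-fold (adjusted p = 0.0220). C57B6-No1 had the smallest change with either probe: A_51_P124133 changed by 7.75 in 129S1-No1, by 7.69 in 129S1-No2 and by 4.73 in C57B6-No1, and A_51_P478303 by 6.36, 5.53 and 3.59 in that order.

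Cyp2d10 had the largest measured change of the 4 genes. The eHep signals of probe A_51_P111192 ran from 6.70 over 29.2 to 99.9 and the mHep signals from 3433 over 6775 to 95572, against 78017 on the primary array. Here too the 2 media did not overlap, and the mHep arrays of 129S1-No1 (69229 to 95572) stood above those of the other mice (3433 to 6775). The difference was 8.96 ± 0.41 or 496-fold (adjusted p = 0.00191), from -4.65 ± 2.21 to 4.31 ± 2.28. The probe was above background on 5 of 7 eHep arrays, and the fold was 359.6 with dim readings raised to the lowest signal that was above background on their array. The change was 9.29 in mouse 129S1-No2, 9.23 in mouse 129S1-No1 and 8.35 in mouse C57B6-No1. The second probe, A_52_P527775, was above background on 1 of 7 eHep arrays and on all 7 mHep arrays. Its eHep signals ran from 6.16 over 14.4 to 20.2, its mHep signals from 165.5 over 347.01 to 6750 and its primary signal was 7431. Its difference was 5.67 ± 0.62 (adjusted p = 0.0200), or 50.8-fold as measured and 31.3-fold with the dim readings raised.

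Cyp2d22 was near background in eHep and measurable in mHep with each of its 3 probes. Probe A_51_P124126 gave eHep signals from 3.66 over 16.7 to 28.2, mHep signals from 157.5 over 209.1 to 2611 and 2906 in primary hepatocytes. Its change was 5.02 ± 0.55 (adjusted p = 0.0200), which is 32.5-fold as measured and 17.4-fold with dim readings raised, since only 1 of 7 eHep arrays was above background. Its call held with the dim readings raised and was lost with another background correction, normexp (2.24, adjusted p = 0.0835). Probe A_52_P478420 was not above background on any eHep array (3.74 to 5.96) and was above it on every mHep array (26.6 to 209.6). With the dim readings raised it was 4.38-fold higher in mHep. The adjusted p was 0.0135 as measured (4.10), 0.0631 with the dim readings raised (2.13) and 0.172 with normexp (1.16). The call of this probe therefore rests on readings that were not above background. Its primary signal was 26.99, within the range of the mHep arrays before scaling. Probe A_52_P49391 did not pass, with a change of 4.35 ± 0.82 (adjusted p = 0.0797). Before scaling, its eHep signals ran from 3.49 over 7.28 to 98.99 and its mHep signals from 125.6 over 154.3 to 321.8, with no overlap. After scaling the media did overlap: eHep replicate 2-1 of C57B6-No1 (-2.04) lay above the mHep arrays of 129S1-No1 (-2.27 to -2.13). The mice ran from 2.85 in C57B6-No1 over 3.30 in 129S1-No1 to 6.91 in 129S1-No2. The 98.99 came from eHep replicate 2-1 of C57B6-No1, and without that array the adjusted p was 0.0440. This probe also differed from the others in its order of mice: its mHep signals in 129S1-No1 (130.01 to 154.3) were not above those of C57B6-No1 (125.6 to 321.8) or 129S1-No2 (300.8).

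Cyp2d26 changed by nearly the same amount in the 3 mice. Its eHep signals ran from 32.9 over 62.9 to 319.6, its mHep signals from 3176 over 7711 to 106687 and its primary signal was 144773, and all 15 readings were above background. The changes were 6.95, 7.02 and 7.12 in 129S1-No2, C57B6-No1 and 129S1-No1, and the fit gave 7.03 ± 0.37 or 131-fold (adjusted p = 0.00208). The levels themselves were higher in 129S1-No1 in both media: its eHep arrays read 161.2 to 319.6 against 32.9 to 62.9 in the other mice, and its mHep arrays 55544 to 106687 against 3176 to 7711.

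**Figure D1:**
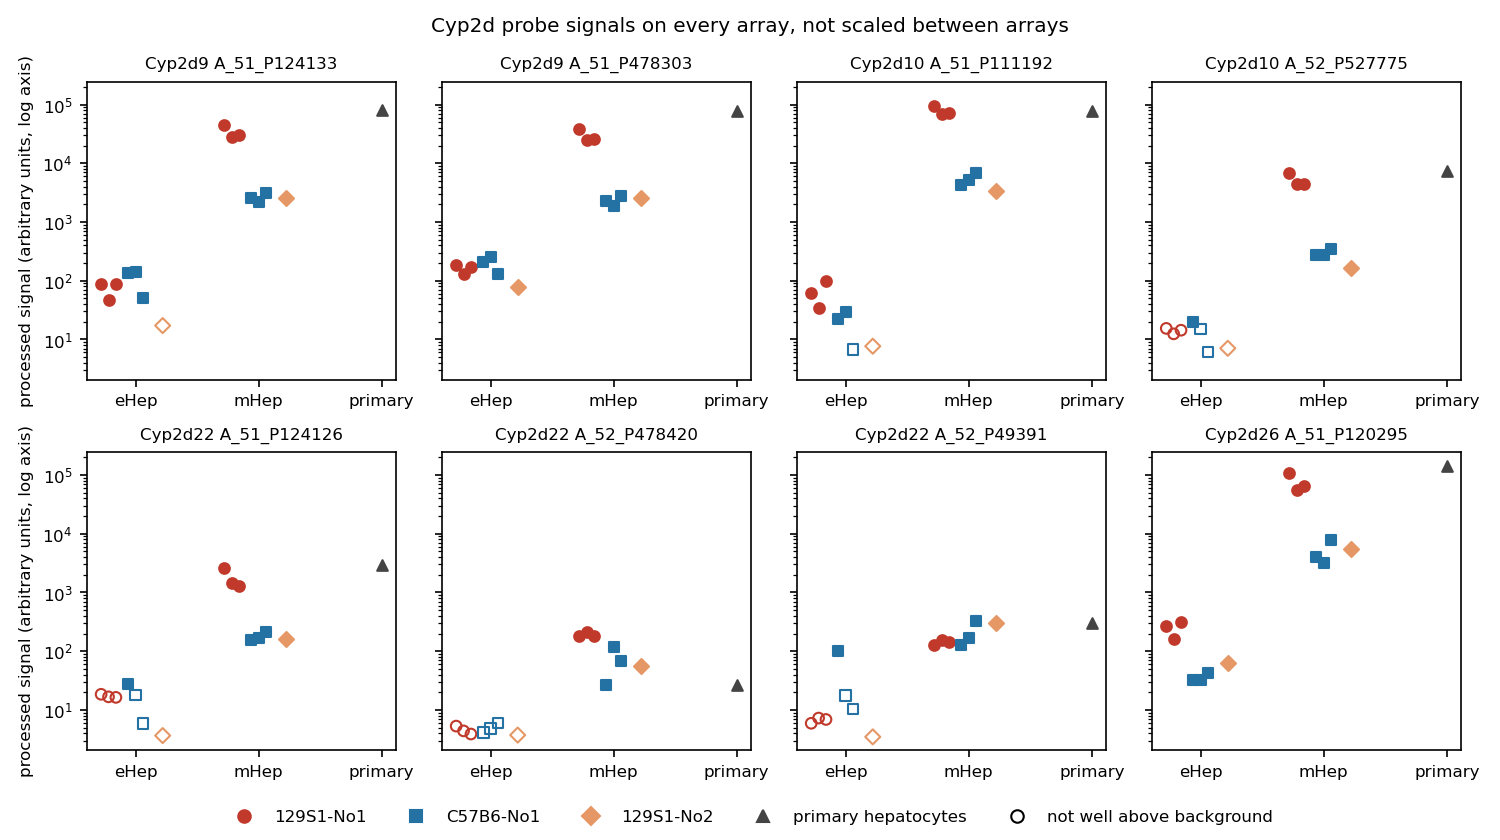
Processed signal (arbitrary units, log axis, not scaled between arrays) of the 8 Cyp2d probes on each of the 15 arrays, with 1 point per array, colour and shape for the mouse, and open points for readings that were not well above background. In every panel the lowest mHep point lies above the highest eHep point, which for Cyp2d22 A_52_P49391 did not hold after scaling. The share of all probes without such overlap is not given here. In every panel but that of Cyp2d22 A_52_P49391 the mHep points of 129S1-No1 lie above those of the other mice, as for Cyp2d10 A_51_P111192 (69229 to 95572 against 3433 to 6775).

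In all, 7 of the 8 probes rose in mHep, where 1.04% of the 22227 probes tested were called higher. At least 1 probe of each of the 4 genes was among them. All 8 member probes passed the filter on dim probes, 5 of them through the mHep arrays alone, so the count of 7 is a description. The 3 that also passed it through eHep were the Cyp2d9 probes and Cyp2d26. The 7 calls rested on pairing the media by mouse: without mouse as a block none of the 8 passed (adjusted p from 0.127 to 0.273), and 5 probes did in all. With 1 mouse left out, 129S1-No2 and its doubtful label included, all 8 passed, but these fits hold 2 pairs of means and called 2.84% to 5.99% of all probes, and without C57B6-No1 the spread was pooled to 1 SE of 0.92 for all 8. With normexp 4 of the 8 passed, where 0.517% of all probes were called higher. These were both Cyp2d9 probes, Cyp2d10 A_51_P111192 and Cyp2d26, and none was of Cyp2d22. With dim readings raised 6 passed, of which 1 was of Cyp2d22, where 1.07% of all probes were called higher. With quantile normalization or the authors' deposited values 5 passed, where 118 probes in all were called higher in either. With scaling on probes detected on all arrays 3 passed, where 90 in all were called higher. Cyp2d10 A_51_P111192 and Cyp2d26 were among those that passed each time. The arrays were scanned on 2 days, and over the single arrays of either day all 8 passed, where 8.91% of all probes were called in either direction on the earlier day and 50.4% on the later. Cyp2d10 A_51_P111192 changed by 9.58 on the earlier day and by 8.57 on the later, Cyp2d26 by 7.19 and 6.9996, and Cyp2d9 A_51_P478303 by 4.93 and 5.10. In 129S1-No1 all eHep arrays were on 1 slide and all mHep arrays on another, and the eHep and mHep arrays of 129S1-No2 were also on different slides. In these mice medium and slide cannot be told apart. Within a mouse, only replicate 2-3 of C57B6-No1 had both media on the same slide. In these bulk samples, fewer cells that express a gene and less of its RNA per cell cannot be told apart.

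**Figure D2:**
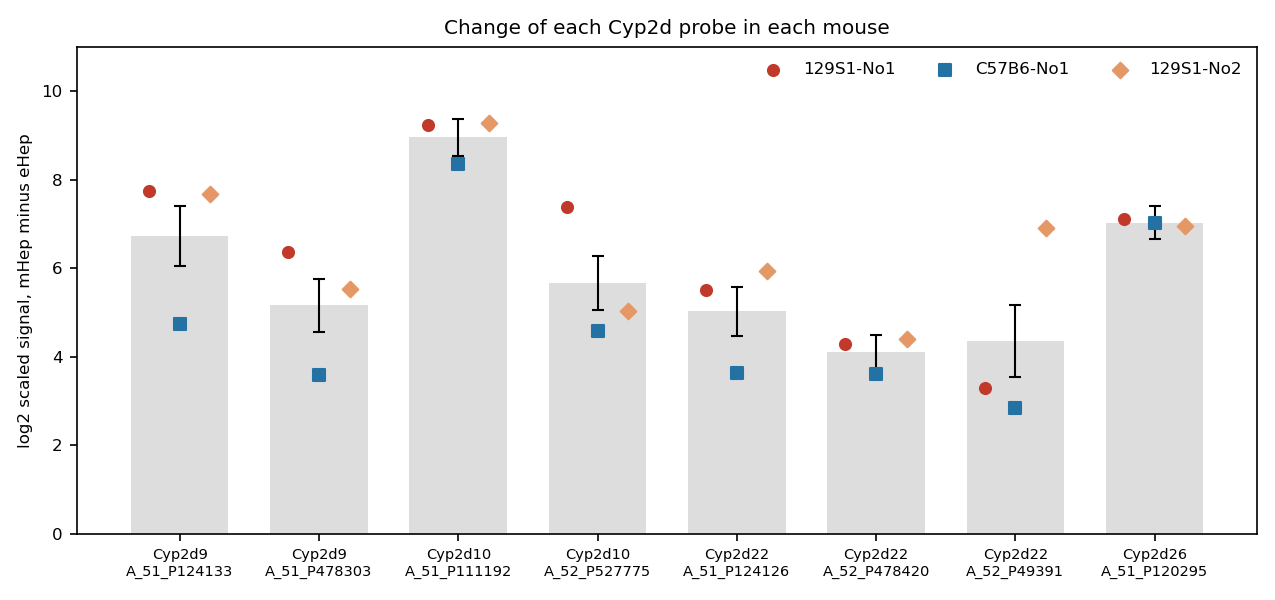
Change from eHep to mHep (log2 scaled signal) of each probe in each of the 3 mice (points), with the fitted mean as a bar and its SE as the error bar. The 3 mice lie close together for Cyp2d26 (6.95 to 7.12) and apart for Cyp2d9 A_51_P124133 (4.73 to 7.75) and Cyp2d22 A_52_P49391 (2.85 to 6.91).

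The change of Cyp2d9 differed between the 2 mice with 3 arrays per medium. Its change in C57B6-No1 minus that in 129S1-No1 was -3.02 ± 0.80 on the log2 scale for A_51_P124133 and -2.77 ± 0.67 for A_51_P478303, and that of Cyp2d10 A_52_P527775 was -2.80 ± 0.78 (adjusted p = 0.0292, 0.0200 and 0.0351, interaction of mouse and medium over 12 arrays). These were 3 of 8 probes, where 15.5% of 22222 probes were called in either direction. The other Cyp2d10 probe did not pass (-0.88 ± 0.91, adjusted p = 0.503), nor did Cyp2d26 (-0.09 ± 0.56, adjusted p = 0.917) or the Cyp2d22 probes (-1.87, -0.67 and -0.45). All 3 mHep arrays of 129S1-No1 were on 1 slide that held no mHep array of C57B6-No1. With slide as a block none of the 8 passed, nor did the Cyp2d9 probes with normexp, and the slide fit gave -1.74 and -1.71 for Cyp2d9 and -2.02 for Cyp2d10. 129S1-No2, with 1 array per medium, was not in this fit. Its change was nearer that of 129S1-No1 for Cyp2d9 A_51_P124133 (7.69, against 7.75 and 4.73 in C57B6-No1) and A_51_P478303 (5.53, against 6.36 and 3.59). For Cyp2d10 A_52_P527775 it was nearer that of C57B6-No1 (5.03, against 4.58 there and 7.39 in 129S1-No1). In mHep level, 129S1-No2 did not follow 129S1-No1. The part of strain was not tested. The scaled mHep level of Cyp2d26 was 6.78 in 129S1-No1, 3.24 in 129S1-No2 and 3.30 in C57B6-No1. Summed hepatocyte marker signal in mHep, relative to the 75th percentile, was 1243 to 1807 in 129S1-No1, 486 to 664 in C57B6-No1 and 459 in 129S1-No2, and summed biliary marker signal was 149 to 202, 540 to 850 and 507. Their part in the Cyp2d levels was not tested.

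Against primary hepatocytes, all 8 probes were called lower in eHep as measured, and 7 of 8 with dim readings raised or with normexp. In these 2 settings 9.52% and 8.12% of all probes were called lower. The log2 difference of eHep from primary was -13.34 ± 1.79 for Cyp2d9 A_51_P124133, -11.84 ± 1.51 for A_51_P478303 and -13.44 ± 1.81 for Cyp2d26 (adjusted p = 0.00542, 0.00501 and 0.00553). It was -14.61 ± 2.03 and -12.09 ± 1.79 for Cyp2d10, and -10.88 ± 1.68 and -7.82 ± 1.33 for Cyp2d22 A_51_P124126 and A_52_P49391. Those 2 probes and Cyp2d10 A_52_P527775 were above background on 1 of 7 eHep arrays each, and with dim readings raised their differences were -9.98, -6.53 and -11.39. The clone probe A_52_P478420 was above background on no eHep array. It read -5.28 ± 0.89 as measured (adjusted p = 0.0113). It was at -3.31, or 9.93-fold lower, with dim readings raised (adjusted p = 0.0548) and at -2.38 with normexp (adjusted p = 0.0522). Its call was lost in both of these settings. Of 23037 probes tested, 8.57% were called lower in eHep than in primary cells and 4.97% higher. Without C57B6-No1, 5 of the 8 passed, where 3.11% of all probes were called in either direction.

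In mHep the same probes were closer to the primary array and 1 of 8 passed. Cyp2d9 A_51_P478303 was lower (-6.68 ± 1.51, adjusted p = 0.0407), where 5.41% of probes were called lower and 3.47% higher. The other differences were -6.62 ± 1.79 for Cyp2d9 A_51_P124133, -5.65 ± 2.03 and -6.42 ± 1.79 for Cyp2d10, -5.86 ± 1.68, -1.18 ± 0.89 and -3.46 ± 1.33 for Cyp2d22, and -6.41 ± 1.81 for Cyp2d26 (adjusted p from 0.0686 to 0.435). These SE are wide and the primary group is 1 array, so a missed threshold does not show equal levels. The count also moved with the background correction. With normexp 5 of the 8 passed, where 4.36% of all probes were called lower, and with dim readings raised 2, where 6.66% were. Without 129S1-No1 6 of the 8 passed, where 8.92% of all probes were called in either direction, and the differences were then -6.94 for Cyp2d10 A_51_P111192 and -7.58 for Cyp2d26. With the C57B6-No1 arrays alone, the strain of the primary cells, 6 passed as well, but 24.8% of all probes did in either direction. Without C57B6-No1 or without 129S1-No2 none of the 8 passed, where 1.02% and 7.56% of all probes did in either direction.

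Scaling moves the values against primary cells. The 75th percentile of the primary array was 78.3 in signal units, against 249 to 826 on the cultured arrays, and 36.3% of its probes were well above background against 48.8% to 61.8%. Before scaling, Cyp2d10 A_51_P111192 read 95572 on the highest mHep array and 78017 on the primary array. The median over all probes of eHep minus primary was -0.15, and 0.31 with quantile normalization. With quantile normalization mHep minus primary was -3.71 for Cyp2d10 A_51_P111192 and -4.35 for Cyp2d26, and all 8 differences stayed below 0.

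**Figure D3:**
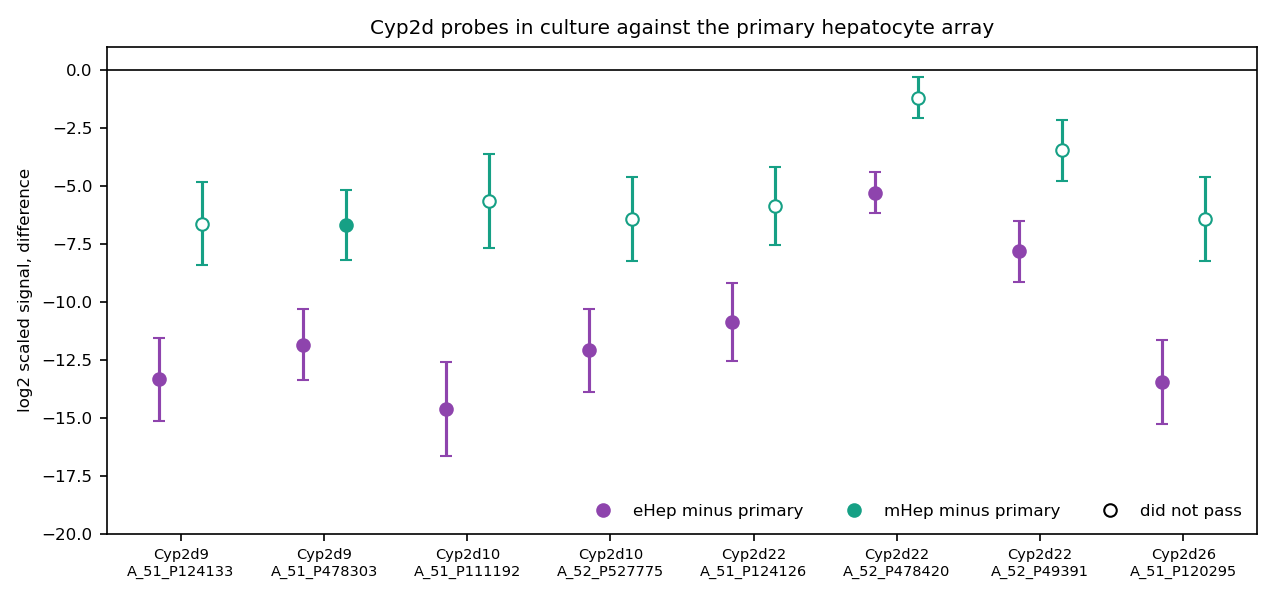
Log2 scaled signal of eHep (purple) and mHep (green) minus the single primary array for each probe, with the SE of the fit as error bars and filled points for probes that passed. Every eHep point is filled and lies between -14.61 and -5.28, the latter that of Cyp2d22 A_52_P478420, which was above background on no eHep array and did not pass with dim readings raised (-3.31), and the mHep points lie between -6.68 and -1.18 with only Cyp2d9 A_51_P478303 filled.

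Of the 3 other Cyp2d genes on the array, 2 were tested between the media and both rose. Cyp2d12 rose by 7.06 ± 0.62 (adjusted p = 0.00978) and Cyp2d34 by 7.68 ± 0.63 (adjusted p = 0.00782), with median signals of 11.9 in eHep and 725.5 in mHep for Cyp2d12 and 6.23 and 891 for Cyp2d34. Cyp2d12 was above background on 2 and Cyp2d34 on 1 of 7 eHep arrays, and with dim readings raised the changes were 6.02 and 6.25 (adjusted p = 0.00682 and 0.0125). Cyp2d13 was above background on 1 of 7 eHep and 3 of 7 mHep arrays and was not tested between them. It was lower than in primary cells in eHep (-9.40) and in mHep (-8.91). The Cyp2d genes are interspersed over a stretch of chromosome 15, and the probes of other genes within 200 kb of a member probe were followed for comparison. Of these 22 probes of 14 genes 11 were bright enough to test. None was called, where 1.39% of all probes were called in either direction, so the lack of calls is a description. Their median was -0.29, with a range from -2.18 to 0.31. The lowest was Cenpm (-2.18 ± 0.66, adjusted p = 0.222), named outside the rule. Tcf20, which encodes a nuclear coregulator, changed by -0.0048 ± 0.38 and 0.29 ± 0.40 with its nearest 2 probes. Ndufa6, a subunit of mitochondrial complex I, changed by 0.23 ± 0.43, and the gene listed as 1500032L24Rik by 0.31 ± 0.49. Fam109b and Wbp2nl, which are also near, were too dim to test.

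**Figure D4:**
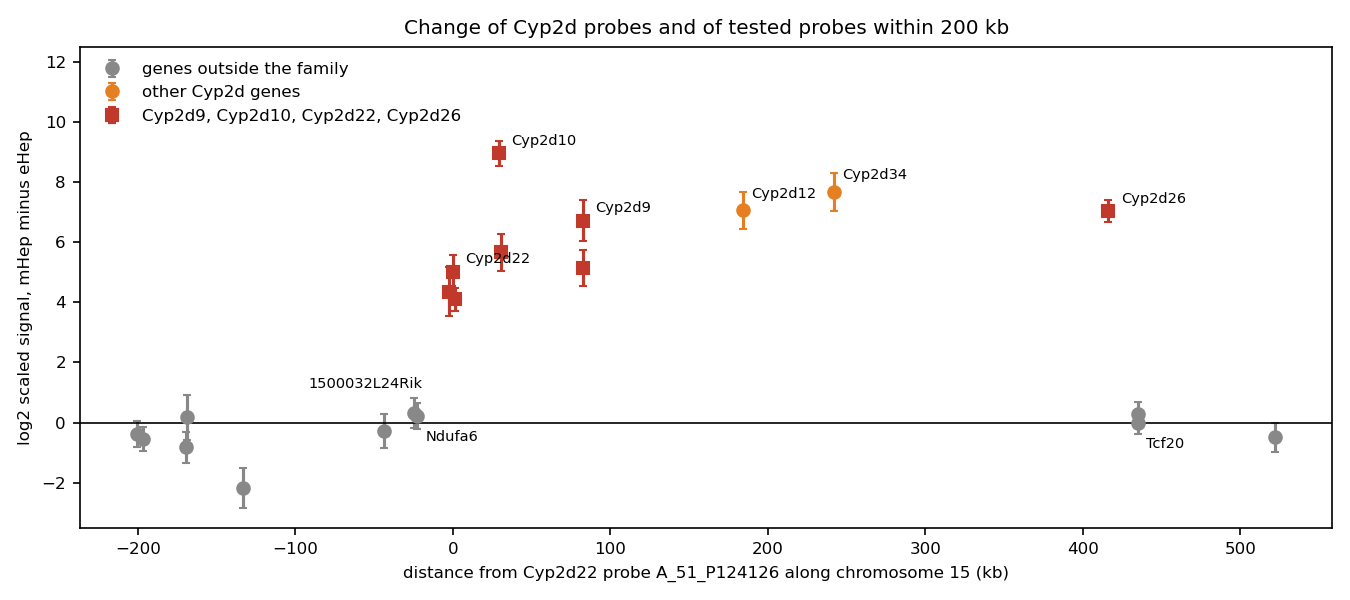
Change from eHep to mHep (log2 scaled signal, error bars SE of the fit) against distance in kb from Cyp2d22 probe A_51_P124126, for the 8 member probes (red squares), the 2 other Cyp2d genes tested (orange) and the 11 tested probes of other genes (grey). The Cyp2d probes lie between 4.10 and 8.96 as measured, the lowest being Cyp2d22 A_52_P478420, which was above background on no eHep array (2.13 with dim readings raised), and the probes of other genes between -2.18 and 0.31.

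The promoters of Cyp2d9, Cyp2d10 and Cyp2d26 are shown to compare the letters before the starts of members on 1 chromosome, with none for Cyp2d22, as the 250 bases before the annotated start in RefSeq's GRCm38.p6 annotation, a different build from that of the probes. Capitals mark the letters CAAAGNGCA, a run seen in all 3 sequences after they were read. These letters differ from the HNF4 site searched below, CAAAGTCCA, and no receptor was assigned to them. Binding was not measured here. The windows are chr15:82452127-82452376 on the plus strand for Cyp2d9, chr15:82407195-82407444 on the minus strand for Cyp2d10 and chr15:82794246-82794495 on the minus strand for Cyp2d26.
Cyp2d9: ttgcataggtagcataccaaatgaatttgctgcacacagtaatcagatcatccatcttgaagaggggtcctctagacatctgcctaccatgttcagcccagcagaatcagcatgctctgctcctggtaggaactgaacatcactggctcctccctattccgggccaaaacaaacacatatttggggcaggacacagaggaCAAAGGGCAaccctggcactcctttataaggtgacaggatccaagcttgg
Cyp2d10: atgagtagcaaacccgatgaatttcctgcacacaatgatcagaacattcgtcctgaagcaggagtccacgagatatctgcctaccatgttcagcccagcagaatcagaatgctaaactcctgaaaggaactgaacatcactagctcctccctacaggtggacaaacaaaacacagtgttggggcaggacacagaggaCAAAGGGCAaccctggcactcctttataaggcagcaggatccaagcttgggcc
Cyp2d26: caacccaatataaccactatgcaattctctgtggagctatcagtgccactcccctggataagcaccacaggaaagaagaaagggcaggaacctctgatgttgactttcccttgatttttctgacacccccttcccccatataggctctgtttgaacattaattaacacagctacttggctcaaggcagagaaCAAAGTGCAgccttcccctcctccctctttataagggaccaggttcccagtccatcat
Over the 300-base windows that also take in 50 bases after the start, Cyp2d9 and Cyp2d10 were identical at 82.9% of aligned positions and shared a run of 51 bases, while the longest run Cyp2d26 shared with either was 10 bases. The marked letters begin at -50 in Cyp2d9, -53 in Cyp2d10 and -58 in Cyp2d26. On either strand, 1.34% of 32851 mouse promoter windows held them. Cyp2d11 and Cyp2d40, which have no probe of their own here, held them as well. Of the motifs searched on both strands, CAAAGTCCA (an HNF4 site, in 0.475% of windows), TTCNNNGAA (STAT5, 8.30%) and TTGCNNAA (C/EBP, 10.8%) had no match in these windows, which says only that these letters are not there.

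Genes that supply electrons to P450 enzymes did not pass between the media. None of the 8 on the array rose or fell, and all were tested, with a median of 0.46 against -0.07 over all probes. Por, the oxidoreductase that supplies P450 enzymes, changed by 0.32 ± 0.46 (adjusted p = 0.820), Cyb5a, a cytochrome b5 that also donates electrons, by 0.72 ± 0.50, and Pgrmc1, a haem-binding partner of P450 enzymes, by 0.71 ± 0.47. Of 13 genes of haem synthesis and turnover 12 were tested and none passed. Alas1, the rate-limiting enzyme of haem synthesis, changed by 0.51 ± 0.44, and Urod, a later step, by 0.23 ± 0.41. Each of these 5 genes was above background on all 15 arrays.

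Of 16 hepatocyte regulators of P450 genes on the array, 3 rose and none fell, with 15 tested and a median of 1.37. The lipid-sensing receptor gene Ppara rose by 5.53 ± 0.65 (adjusted p = 0.0230), the nuclear receptor gene Nr5a2 by 4.68 ± 0.65 (adjusted p = 0.0349) and the bile acid receptor gene Nr1h4 by 3.18 ± 0.47 (adjusted p = 0.0419). Ppara was above background on 6 and Nr5a2 on 4 of 7 eHep arrays. Hnf4a, whose product binds liver promoters and which is named here outside the rule, had a difference of 1.37 ± 0.40 and did not pass (adjusted p = 0.211). Of these 16 genes, 8 were lower than primary cells in eHep and 2 in mHep.

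None of 10 growth hormone signalling genes passed between the media, with 8 tested and a median of 0.17. Igf1, the growth factor that growth hormone induces in liver, is named outside the rule after its value was seen: its difference was -4.83 ± 0.97 (adjusted p = 0.0913), with 7 of 7 eHep and 3 of 7 mHep arrays above background. Stat5b, the transcription factor that carries the male growth hormone signal in liver, had a difference of 0.53 ± 0.39 (adjusted p = 0.611), Socs2, a feedback inhibitor, 0.26 ± 0.46, and Bcl6, a repressor of STAT5 targets, 1.42 ± 0.48. Of 9 male-biased liver genes on the array 5 were tested and 3 rose: the fatty acid hydroxylases Cyp4a12a (5.39 ± 0.44, adjusted p = 0.00782) and Cyp4a12b (5.12 ± 0.56, adjusted p = 0.0200) and the glucuronosyltransferase Ugt2b38 (4.90 ± 0.63, adjusted p = 0.0306). Of 10 female-biased genes 8 were tested and 2 rose, Cyp3a41a by 8.66 ± 1.00 and Cyp2b13 by 2.87 ± 0.44 (adjusted p = 0.0220 and 0.0447). With dim readings raised, Cyp4a12b (3.82, adjusted p = 0.0561) and Cyp2b13 (0.96, adjusted p = 0.400) did not pass. Against primary cells, 7 of the 9 male-biased genes were lower in eHep and 4 in mHep. Those 4 were Hsd3b5, Slco1a1, Elovl3 and Mup3, named outside the rule, which were too dim to test between the media. Of 8 female-biased genes tested against primary cells, 1 was lower in eHep and none in mHep. The Y-linked gene Eif2s3y was above background on all 15 arrays, with signals of 158.5 to 2299 in culture and 56.4 in primary cells. Ddx3y was above background on all 14 cultured arrays but not on the primary array. Kdm5d was above it on 4 eHep and 7 mHep arrays, Uty on 2 and 5, and Xist, expressed from the inactive X chromosome, on 1 and 1.

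Among 31 other P450 genes of drug and steroid metabolism, 25 were tested, 5 rose and none fell. They include Cyp3a41a, already named, Cyp2a12 (6.27 ± 0.90, adjusted p = 0.0390), Cyp2c70 (5.21 ± 0.56, adjusted p = 0.0198) and Cyp2j5 (3.96 ± 0.54, adjusted p = 0.0347). Cyp2j5 was not above background on any eHep array. With dim readings raised it was 5.83-fold higher in mHep and did not pass (adjusted p = 0.178), nor did Cyp2a12 (adjusted p = 0.0525). In eHep 17 and in mHep 9 of the 29 tested were lower than in primary cells. Probes in these lists that are dim in 1 medium could be tested only where the other medium was bright.

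The labelled cell type was checked by its markers. Of 7 hepatocyte markers, 5 rose in mHep, among them Alb, serum albumin, by 9.06 ± 0.84 (adjusted p = 0.0109), Ahsg, fetuin-A, by 11.78 ± 0.64, Apoa1, an apolipoprotein, by 10.05 ± 0.91 and Ttr, a thyroxine carrier, by 6.87 ± 0.39. In eHep Alb was above background on 7 of 7 arrays, Ahsg on 5, Apoa1 on 3 and Ttr on none. With dim readings raised, Ttr was 55.9-fold higher in mHep. Trf (2.76 ± 1.03, adjusted p = 0.314) and Tat (2.11 ± 0.70, adjusted p = 0.257), named outside the rule, did not pass. Summed hepatocyte marker signal was 2.57 to 292 in eHep, 459 to 1807 in mHep and 9769 in primary cells. In eHep the brightest of these markers was Trf, at a mean level of 4.40, and the next was Fgb at 1.17. None of the other markers passed between the media, with 4 of 7 macrophage, 1 of 6 endothelial, 1 of 6 stellate and 5 of 5 biliary markers tested. Against primary cells, 2 of 5 biliary markers were higher in eHep and in mHep, with Krt7 at 10.84 and 11.67 and Krt19 at 10.497 and 9.89, while Spp1 did not pass (5.06 and 4.38). Sox9 (1.03 and -0.56) and Epcam (0.20 and 2.14), named outside the rule, did not pass either. With dim readings raised, Epcam was at -1.48 and 0.09. In both cultures Sox9 and Epcam were the dimmest of the 5. The summed biliary signal was 149 to 850 in culture and 5.29 in primary cells. Of the macrophage markers, Cd14 was higher in both cultures (5.66 and 6.96), Lyz2 was at -6.71 and -5.74 and Cd68 at 2.14 and 1.103. Adgre1 and Clec4f, which mark tissue macrophages and are named outside the rule because they passed, were above background in primary cells and on no cultured array. With dim readings raised, Clec4f was 65.7-fold lower in eHep and 70.1-fold in mHep. Adgre1 was then 8.20-fold and 8.75-fold lower (adjusted p = 0.0480 and 0.0531). The summed macrophage signal was 5.52 to 179 in culture and 9.78 in primary cells. In culture this sum was mostly Cd14, at a mean level of 4.55 in eHep and 5.85 in mHep. The next brightest macrophage marker was Cd68, at -1.13 and -2.17. Cdh5, an endothelial cadherin that passed and is also outside the rule, was above background on no cultured array. With dim readings raised it was 12.3-fold lower in eHep and 13.1-fold in mHep. Stab2 (-3.84 and -3.96) and Kdr (-5.34 and -5.91) of the endothelial markers and Acta2 (0.74 and 0.36) of the stellate markers did not pass. Tek was above background on 1 cultured array, Lrat on 2 and Des on none. Whether these markers have a part in the Cyp2d values was not tested.

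The genes most like each member in scaled signal were sought across the 15 arrays, with all Cyp2d genes and Rik, Gm, LOC and clone names left out. Those most like Cyp2d10 A_51_P111192 were Fgg, a fibrinogen chain (r = 0.996), the coagulation factor gene F10, Ttr, the plasma protein gene Apoh and Ccdc28a (r at least 0.984). Those most like Cyp2d26 were F10 (r = 0.995), Apoh, Proz, Sgk2 and Ttr. For Cyp2d9 A_51_P478303 they were the amino acid transporter gene Slc38a3 (r = 0.989), Proz, Mup4, Cyp4a10 and Vtn, and for Cyp2d22 A_51_P124126 they were Mup4 (r = 0.989), Serpina3m, Slc38a3, Ftcd and Ccdc28a. These values describe 15 arrays that share mice and 3 kinds of cell, and 19732 probes were compared. Among the member probes themselves r was lowest with Cyp2d22 A_52_P49391, from 0.773 with Cyp2d26 to 0.868 with Cyp2d9 A_51_P124133. Some members were more like each other than like the genes named. Cyp2d22 A_51_P124126 was at 0.990 with either Cyp2d9 probe, and Cyp2d9 A_51_P478303 at 0.993 with Cyp2d10 A_52_P527775.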

How the data were processed

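The 15 arrays were read from the scanner files, in which per the file headers Agilent Feature Extraction 10.7.1.1 (earlier scan) or 10.7.3.1 (later scan) had background-subtracted and detrended a Cy3 intensity, with probe positions in mm9. The table of values deposited by the authors is in log2 units with like quartiles on every array; how it was made is not given in the sources used here, and it served as an alternative. Spots of a probe were averaged without control spots, which gave 41174 probes from 43379 spots, and no member reading was saturated. From each log2 intensity its array's 75th percentile was subtracted. The number of arrays limits the precision.

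Tested probes were well above background in eHep or mHep on every array of 2 or more of the 3 mice. The primary array could also qualify a probe for tests against it. The means per mouse and medium, 6 in all, were fitted in limma 3.58.1 (R 4.3.3) with mouse as a block, because the labels name the same mouse in both media. Deviations of the same mouse in eHep and mHep correlated at 0.34, 0.56 and 0.50, and those of different mice at 0.048 at most. These values do not test the pairing. With only 3 mice the deviations depend on each other, which lowers the values between different mice. All arrays of 129S1-No1 were of the later scan and those of 129S1-No2 of the earlier, so for these mice scan and mouse cannot be told apart. Against primary cells 7 means were fitted, with the single primary array assumed to vary like the cultured means. The difference of the changes used the 12 single arrays of 129S1-No1 and C57B6-No1. Adjusted p-values are Benjamini-Hochberg values over all probes tested. The paired fit was tested on simulated data.

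Every member probe is named. Of each gene list, up to 4 called genes with the largest change, or up to 3 with the highest mHep signal where none was called, are named, and all other Cyp2d and sex chromosome genes. The nearest 6 genes within 200 kb are named too. So are the 5 genes with the highest r to the brightest probe of each member, over probes well above background on at least 7 arrays. Cyp2d genes and Rik, Gm, LOC and clone names were left out of this ranking. Some genes that these rules name are not reported here. Members and lists were chosen with earlier results of these data known. Alternatives were another background correction, 3 other scalings, the authors' table, 2 filters, genes for probes, raised dim readings, another moderation, other blocks, single arrays, scans, and mice or arrays left out. Promoters were RefSeq windows, aligned with Biopython 1.88; figures were drawn with matplotlib.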

Additional observations from a re-analysis of the deposited data

Results flagged for a closer look

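For 3 probes the change from eHep to mHep differed between C57B6-No1 and 129S1-No1 by the interaction of mouse and medium over 12 arrays. The change of Cyp2d9 in C57B6-No1 minus that in 129S1-No1 was -3.02 on the log2 scale with A_51_P124133 (limma adjusted p = 0.0292) and -2.77 with A_51_P478303 (adjusted p = 0.0200). For Cyp2d10 A_52_P527775 it was -2.80 (adjusted p = 0.0351). The Cyp2d9 probes share bases, so their values are not independent. With each of the 12 arrays left out in turn, A_51_P478303 lost its call only without mHep replicate 1-1 (adjusted p = 0.0533). A_51_P124133 lost it in 8 of 12 cases (adjusted p up to 0.0731) and A_52_P527775 in 9 of 12 (up to 0.0842). On the log2 scaled levels, no member probe had an array that stood apart within its group of 7 by the Dixon test. On unscaled signals, eHep replicate 2-1 of Cyp2d22 A_52_P49391 (98.99) did, with a ratio of 0.850, in 1 of 16 groups, and chance gives about 1 in 20.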

How the results depend on the processing

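For mHep against eHep, 308 probes passed (232 higher, 76 lower). The count was 145 with normexp (115 higher, 30 lower), 133 with quantile normalization and with the authors' table (118 higher, 15 lower in either), 600 with median scaling (408 and 192), 94 with scaling on detected probes (90 and 4), 830 with no filter and 519 with a strict one. Without mouse as a replicate block it was 5. It was 7548 with 14 arrays as samples, 4099 with slide as a further block, 1981 in the earlier scan and 11200 in the later. Leaving out single arrays or mice gave 237 to 1332. The member probes kept a positive change under each of these alternatives that tested them.

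For eHep against primary cells 3120 probes passed (1146 higher, 1974 lower). The count was 4724 with quantile normalization (2784 and 1940), 4722 with the authors' table, 12541 with no filter, 7062 with C57B6-No1 arrays alone and 717 to 3198 with a mouse left out. For mHep against primary cells 2045 passed (799 higher, 1246 lower), 3499 with quantile normalization (2225 and 1274), 3495 with the authors' table, 13253 with no filter, 5710 with C57B6-No1 alone and 236 to 2054 with a mouse left out. No member difference changed sign in these comparisons.

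For the change in C57B6-No1 minus that in 129S1-No1, 3451 probes passed, 700 with normexp, 1457 with slide as a block and 1842 to 7042 with an array left out. Differences that did not pass changed sign: Cyp2d22 A_52_P49391 was 0.20 with normexp, 0.63 with dim readings raised and -1.37 to 0.61 with an array left out, Cyp2d26 was 0.38 with slide as a block and -0.43 to 0.32 with an array left out, and Cyp2d10 A_51_P111192 was 1.08 with slide as a block. The replicate number of the labels as a replicate block gave 3351 probes and changed no member call. Where fewer probes were tested or fewer arrays used, the counts moved with that, and the cause of the other moves was not tested. Signals near background limit Cyp2d22 and Cyp2d10 A_52_P527775 in eHep, and the single primary array limits every comparison with it.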
